A study of Cavia porcellus with 35 samples.

Results

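Adrenergic receptors are the cell surface receptors for noradrenaline and adrenaline. A list of 6 receptor genes, ADRA1A, ADRA1B, ADRA1D, ADRA2A, ADRA2C and ADRB1, was looked up by symbol, ignoring case, in the 4 tables of read counts. Of the 6 genes, 4 (ADRA1A, ADRA1B, ADRA1D and ADRB1) were found in all 4 tables, which together hold 12100 gene symbols. ADRA2A and ADRA2C were not analysed here.

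RNA from the medial prefrontal cortex (mPFC) was sequenced in 35 juvenile guinea pigs at postnatal day 40, with 1 library per animal. F1 animals were born to mothers given repeated courses of the synthetic glucocorticoid (sGC) betamethasone in late gestation, or to control mothers given saline. F2 and F3 animals descend through the paternal line from those pregnancies, by matings of males with females outside the experiment, and so were not themselves exposed as fetuses. The tables hold F1, F2 and F3 females, each with 4 control and 4 sGC animals, and F1 males with 5 control and 6 sGC animals. The tissue was a punch of cortex, so fewer cells of a type and less RNA per cell cannot be told apart in any value below.

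The alpha-1 receptors (ADRA1A, ADRA1B, ADRA1D) couple to the G protein Gq and activate phospholipase C, which releases calcium and activates protein kinase C. Alpha-2 receptors couple to Gi and Go, lower cyclic AMP and act on ion channels. Beta receptors (ADRB1) couple to Gs and raise cyclic AMP through adenylyl cyclase. In the prefrontal cortex noradrenaline comes from axons of the locus coeruleus, and its receptors are studied for their part in arousal, working memory and stress.

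Libraries held 12819964 to 19551079 counted reads in females and 25697953 to 31763585 in males. Markers of cortical excitatory neurons were present in all animals, but striatal markers differed widely, most in the F1 female libraries. Their summed striatal medium spiny neuron markers (8 genes) were 2661 and 2492 CPM (read counts scaled to the library size) in control animals 1 and 4, 585 and 897 CPM in control animals 2 and 3, and 261 to 643 CPM in sGC animals. SLC17A7, the vesicular glutamate transporter of cortical excitatory neurons, was at 171 to 989 CPM in the F1 female controls and at 884 to 3576 CPM in their sGC group. The F1 female differences of the 4 receptor genes and the counts of the gene lists are therefore also given without control animals 1 and 4, an alternative chosen after seeing the data. F3 females also varied in striatal markers (8 genes), which summed to 324 to 961 CPM in controls and 216 to 472 CPM with sGC. In F2 females and F1 males 6 striatal markers summed to 166 to 283 CPM and 97 to 145 CPM. SLC17A7 in F3 females was at 467 to 811 CPM in controls and 933 to 1169 CPM with sGC. The part of this in the F3 results was not tested. In F1 males all 5 oligodendrocyte markers tested were higher with sGC at an adjusted p (FDR) under 0.05, beside 5.74% of all genes tested. Their summed level was 3153 to 5990 CPM in controls and 6763 to 11502 CPM in sGC animals. The extraction note in the labels names the hypothalamic paraventricular nucleus, whereas the source is given as prefrontal cortex; its markers summed to 13.1 to 16.7 CPM in F1 female controls.

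Within each table sGC animals were compared with controls. None of the 4 receptor genes passed a false discovery rate (FDR) of 0.05 in any table by edgeR's quasi-likelihood test, nor by the likelihood ratio test or DESeq2. The background was 16.5% of all genes tested in F1 females, 0.278% in F2 females, 1.34% in F3 females and 9.22% in F1 males. At an unadjusted p under 0.05, the genes were ADRA1B in F1 females (background 34.2%), ADRB1 in F3 females (17.3%), and ADRA1A and ADRA1D in F1 males (25.2%), with none in F2 females (16.1%). With 4 genes in all, 0 to 2 genes per table is no result about the receptors as a group.

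**Figure D1:**
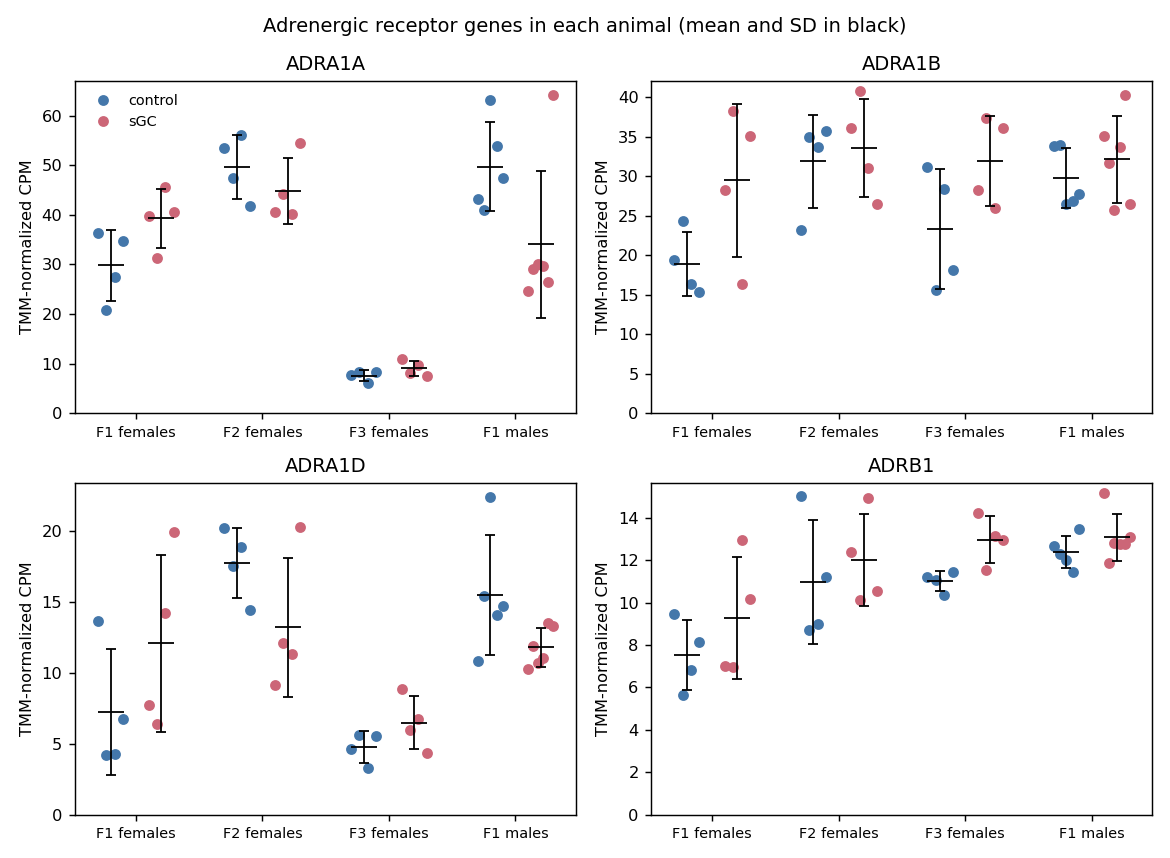
TMM-normalized CPM of each receptor gene (y axis, linear, from 0) in each control (blue) and sGC (red) animal of the 4 tables (x axis), with group means and SDs in black. ADRA1A was at 6.00 to 10.9 CPM in F3 females, and 1 F1 male sGC animal, at 64.1 CPM, lay above all F1 male controls while the other 5 lay below them.

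ADRA1A encodes the alpha-1A receptor. In F1 males the controls were at 43.2, 41.0, 63.1, 53.9 and 47.4 CPM. The sGC animals were at 24.7, 29.1, 30.1, 29.7, 26.5 and 64.1 CPM. Thus 5 of 6 sGC animals were below every control and sGC animal 6 was above all of them. The mean was 49.7 ± 8.96 CPM (SD, n = 5) in controls and 34.0 ± 14.9 CPM (SD, n = 6) with sGC, a log2 difference of -0.55 (SE 0.22, FDR 0.136). Without sGC animal 6 the difference was -0.83 with an FDR of 0.00225. Of 11 fits with 1 animal left out, only this 1 passed. The differences ranged from -0.83 to -0.45, with FDR values up to 0.277 (without control animal 3). In F1 males 3 of 8 interneuron markers were lower with sGC at FDR 0.05, beside 3.48% of all genes tested. The interneuron marker sum of sGC animal 6, 827 CPM, was the highest among the sGC males (654 to 827 CPM, with controls at 722 to 904 CPM). The same animal stood apart in its astrocyte markers (summed level 8623 CPM, against 5795 to 6449.7 CPM in the other 10 males) and its endothelial and mural markers (810 CPM, against 498 to 669 CPM). The part of these markers in the receptor result was not tested.

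In F1 females ADRA1A was at 36.3, 20.7, 27.4 and 34.7 CPM in controls and at 39.8, 31.3, 45.7 and 40.5 CPM in sGC animals. All but 1 sGC animal lay above every control, and the log2 difference was 0.40 (SE 0.18, FDR 0.153). Control animals 1 and 4, those with the high striatal marker sums, were also the 2 highest controls for ADRA1A. Leaving them out, which leaves 2 controls, gave 0.73 with an FDR of 0.036, and removed the 2 control values nearest to the sGC group. In F2 females the controls were at 53.4, 47.3, 56.1 and 41.8 CPM and the sGC animals at 40.6, 44.1, 40.1 and 54.5 CPM, with overlapping groups (-0.14, FDR 0.592). F3 females were far lower, at 7.60, 8.32, 6.00 and 8.33 CPM in controls and 10.9, 8.12, 9.62 and 7.39 CPM with sGC, and also overlapped (0.25, FDR 0.440).

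ADRA1A passed the test for a different response in F1 females and F1 males. These females and males are in separate tables of different read depth, so sex and table cannot be told apart. The interaction, the male minus the female log2 difference, was -0.95 (SE 0.33, 95% confidence interval -1.65 to -0.26, FDR 0.0355). Of all genes tested for this interaction 31.7% passed. The call held in 7 of 19 fits that left out 1 animal, with FDR values from 0.00057 to 0.0808, and with both striatal-marker controls omitted it was -1.27 (FDR 0.0182). No receptor gene on the list passed for F1 against F2 females (background 13.8%), F1 against F3 females (0.0981%) or F2 against F3 females (0.018%). For ADRA1A these interactions were -0.55 (-1.04 to -0.05), -0.16 (-0.70 to 0.38) and 0.40 (-0.02 to 0.82). Without the 2 controls, the F1 against F2 interaction of ADRA1A was -0.88 (FDR 0.0143).

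ADRA1B encodes the alpha-1B receptor. In F1 females controls were at 19.4, 24.4, 16.3 and 15.4 CPM and sGC animals at 28.3, 38.3, 16.3 and 35.1 CPM. Here sGC animal 3 lay within the controls and the other 3 above them. The means were 18.9 ± 4.07 and 29.5 ± 9.71 CPM (SD, n = 4 each), a log2 difference of 0.64 (SE 0.25, FDR 0.109). Without sGC animal 3 it was 0.84 (FDR 0.0224), and without the 2 striatal-marker controls 0.56 (FDR 0.280). Of 8 fits with 1 animal left out, only the 1 without sGC animal 3 passed. FDR values in these fits reached 0.218 (without sGC animal 2). F3 females had 31.1, 15.6, 28.4 and 18.2 CPM in controls and 28.2, 37.4, 26.0 and 36.1 CPM with sGC, with 2 sGC animals above all controls (0.45, FDR 0.333). The groups overlapped in F2 females (31.9 ± 5.90 and 33.6 ± 6.20 CPM, FDR 0.849) and in F1 males (29.8 ± 3.77 and 32.2 ± 5.50 CPM, FDR 0.614).

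ADRA1D encodes the alpha-1D receptor. In F1 males controls were at 10.8, 15.5, 22.4, 14.1 and 14.7 CPM and sGC animals at 10.3, 11.9, 10.7, 11.1, 13.5 and 13.3 CPM. Control animal 1 was at the level of the sGC group, and the other 4 controls were above every sGC animal. The log2 difference was -0.40 (SE 0.15, FDR 0.114), -0.50 (FDR 0.0389) without control animal 1 and -0.23 (FDR 0.259) without control animal 3, the highest. In F1 females the values were widely spread, at 13.6, 4.22, 4.28 and 6.77 CPM in controls and 7.75, 6.41, 14.3 and 19.95 CPM with sGC (0.73, SE 0.46, FDR 0.293). Without the 2 striatal-marker controls the difference was 1.53 (FDR 0.0727). F2 females had 20.2, 17.5, 18.9 and 14.4 CPM in controls and 9.13, 12.1, 11.3 and 20.3 CPM with sGC, so that 3 of 4 sGC animals were below every control (-0.43, FDR 0.357). In F3 females means were 4.78 ± 1.10 and 6.50 ± 1.85 CPM (0.45, FDR 0.368). The interaction between F1 females and F1 males was -1.12 (95% interval -2.07 to -0.18, FDR 0.0651); the likelihood ratio test (FDR 0.0433), DESeq2 (FDR 0.0343) and the fit without the 2 controls (-1.91, FDR 0.00377) passed the threshold. Without those controls the interaction between F1 and F2 females was -1.96 (FDR 0.0203).

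ADRB1 encodes the beta-1 receptor. In F3 females controls were at 11.2, 11.0, 10.4 and 11.4 CPM and sGC animals at 14.2, 11.5, 13.2 and 12.95 CPM. All 4 sGC animals were above all controls, and the groups did not overlap in 10.3% of the genes tested in that table. The log2 difference was small, 0.23 (SE 0.09, FDR 0.213). In F1 females the means were 7.52 ± 1.64 and 9.27 ± 2.86 CPM (0.30, FDR 0.402; 0.59, FDR 0.196, without the 2 striatal-marker controls), in F2 females 11.0 ± 2.92 and 12 ± 2.18 CPM (0.13, FDR 0.778), and in F1 males 12.4 ± 0.752 and 13.1 ± 1.11 CPM (0.08, FDR 0.559). In each of these the groups overlapped.

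**Figure D2:**
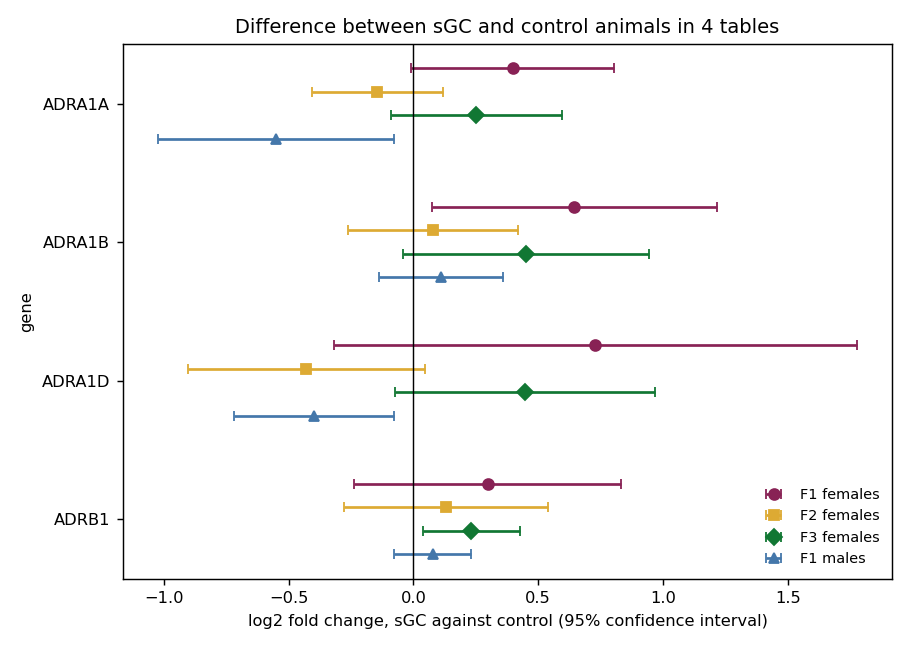
Log2 difference between sGC and control animals (x axis, points) with the 95% confidence interval (bars) for each receptor gene (y axis) in each table. The ADRA1A interval spans -1.02 to -0.08 in F1 males and -0.01 to 0.80 in F1 females.

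Levels across tables were set on one scale by normalizing all libraries jointly. The tables are deposited separately, so neither generation nor sex can be told apart from table. ADRA1A in controls averaged 52.6 CPM in F1 males, 51.8 CPM in F2 females, 31.2 CPM in F1 females and 7.05 CPM in F3 females. The order in sGC animals was 46.7 CPM in F2 females, 41.4 CPM in F1 females, 35.9 CPM in F1 males and 8.48 CPM in F3 females. In fits of controls alone, the level in F3 females was 4.33-fold lower than in F1 females and 7.13-fold lower than in F2 females, and 1.95% and 1.17% of genes changed by more. Many genes differed between tables, with 52.4% of genes passing FDR 0.05 between F3 and F1 controls and 65.9% between F3 and F2 controls. ADRA1D in controls was lowest in F3 females too (4.46 CPM against 7.59, 18.5 and 16.4 CPM in F1 females, F2 females and F1 males). ADRA1B and ADRB1 control means spanned 19.7 to 33.3 CPM and 7.89 to 13.1 CPM.

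Animals were then compared within their groups, as deviations of log2(CPM + 0.5) from the group mean. ADRA1A and ADRA1D went together over the 35 animals (Pearson r = 0.62, Spearman rho = 0.74, permutation p = 1e-05 for both, the smallest the 100000 permutations can give, adjusted 6e-05). ADRA1A and ADRA1B went in opposite directions (r = -0.58, permutation p = 0.0001, adjusted 0.0003; rho = -0.66, permutation p = 0.00011, adjusted 0.00033). Within tables r was 0.74, 0.89, 0.98 and 0.48 for the first pair and -0.64, -0.56, -0.70 and -0.68 for the second, in F1, F2 and F3 females and F1 males. Leaving out the 2 animals farthest from the median of ADRA1D gave 0.65 for the first pair. Leaving out the 2 farthest from that of ADRA1B gave -0.60 for the second. Without F1 male sGC animal 6, the outlier of ADRA1A, r was 0.74 and -0.63. The other 4 of the 6 pairs did not pass after adjustment.

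**Figure D3:**
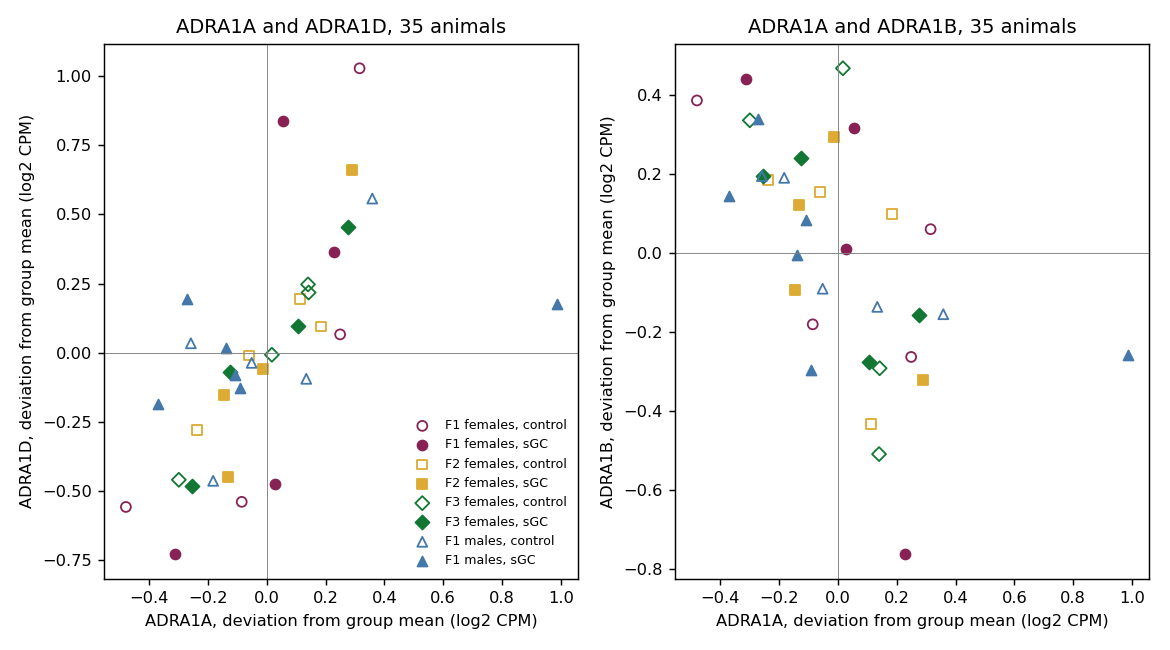
Deviation from the group mean on the log2 CPM scale of ADRA1A (x axes) against ADRA1D (left) and ADRA1B (right) in 35 animals, marked by table (shape and colour) and treatment (open, control; filled, sGC). ADRA1A rises with ADRA1D (r = 0.62) and falls with ADRA1B (r = -0.58).

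The same deviations were set against cell type markers, 44 relations in all. Here the marker value was not a sum. It was the mean log2(CPM + 0.5) of the markers found in all 4 tables, again as a deviation from the group mean. ADRA1A went with interneuron markers (r = 0.70, rho = 0.66) and against oligodendrocyte markers (r = -0.54, rho = -0.63), and ADRA1B went against interneuron markers (r = -0.60, rho = -0.56) and with astrocyte markers (r = 0.54, rho = 0.56). The permutation p for r was 0.00049, 0.00162, 0.00089 and 0.00765 (adjusted over the 44, 0.0176, 0.0178, 0.0176 and 0.0421), and for rho 0.00047 or 0.00055 for ADRA1A, 0.00235 and 0.00191 for ADRA1B (adjusted 0.0121 for both of ADRA1A and 0.0207 for both of ADRA1B). In all, 8 of the 44 passed for r and rho alike. The other 4 were ADRA1A with endothelial and mural markers (r = 0.61) and with upper layer markers (r = 0.49), and ADRA1D with oligodendrocyte markers (r = -0.54) and with upper layer markers (r = 0.57). The relation of ADRA1A with interneuron markers was 0.97, 0.54, 0.00 and 0.94 within F1, F2 and F3 females and F1 males, so it was not seen in F3 females. It was 0.56 without the 2 animals farthest from the median of the interneuron markers. The relation of ADRA1A with oligodendrocyte markers was -0.91, -0.12, -0.44 and -0.54 in the same 4 tables. Most of the other 6 were also near 0 or of the other sign in at least 1 table. Among them, ADRA1B with astrocyte markers was -0.02 in F1 males, ADRA1A with endothelial and mural markers was -0.13 in F3 females, and ADRA1A and ADRA1D with upper layer markers were 0.04 and -0.08 in F2 females and 0.07 and 0.12 in F3 females. ADRA1D with oligodendrocyte markers was -0.05 in F2 females, whereas ADRA1B with interneuron markers was between -0.78 and -0.42 in all 4 tables. ADRB1 passed with no marker list. Within F1 females ADRA1A went with striatal markers as well (r = 0.77, but 0.03 over the 35 animals). In F1 female controls 1 to 4, SLC32A1 (263, 130, 174 and 232 CPM) of the interneuron list had the order of the striatal sums. So did CNR1 (117, 61.1, 85.9 and 101 CPM). GAD2 (298, 220, 269 and 303 CPM) was also highest in controls 1 and 4. The same held for PVALB (81.0, 61.7, 56.7 and 76.8 CPM) and VIP (16.5, 8.50, 8.35 and 10.3 CPM). GAD1 (327, 255, 340 and 385 CPM) was highest in controls 3 and 4. So were SST (90.6, 104, 116 and 116 CPM) and LHX6 (24.6, 27.2, 33.7 and 31.1 CPM). Which cells the interneuron relation reflects was not tested. The part of cell composition in the differences with sGC was not tested.

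The genes around the receptors were described from 5 lists. In F1 females 6 of 11 genes of the Gi and Go arm passed upwards and none downwards, with a median log2 difference of 0.26 beside -0.03 over all genes tested (background 9.21% upwards, 7.33% downwards). They included KCNJ3 (48.5 ± 7.25 CPM in controls, 102 ± 15.8 CPM with sGC, log2 difference 1.07, FDR 0.0039) and KCNJ6 (0.79, FDR 0.0461), subunits of the potassium channels opened by Gi-coupled receptors. Without the 2 striatal-marker controls 7 passed upwards, and the share of all genes in that fit is not reported here. Excitatory neuron markers were higher in the same animals at an unadjusted p under 0.05 (5 of 5, none at FDR 0.05; summed level 1737 to 3041 CPM in controls and 3038 to 6289 CPM with sGC), and their part in this was not tested.

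Of 17 genes of the Gq arm in F1 females, 4 passed upwards and 2 downwards. DGKG, a diacylglycerol kinase, rose by 0.52 and PRKCE, a protein kinase C, by 0.49 on the log2 scale, while PLCB2 and PLCB3, phospholipases C, fell by 0.77 and 0.33. Of 21 genes of the Gs arm, 3 passed in each direction. ADCY2, an adenylyl cyclase, rose by 0.68 and PRKAR1B, a protein kinase A subunit, by 0.43, while PPP1R1B fell by 2.30 and GNAL fell by 1.32. PPP1R1B and GNAL are known for their high level in striatum, and PPP1R1B is also on the striatal marker list, 4 of whose 8 genes were lower with sGC. The desensitisation list had 2 of 13 upwards, RGS7 (0.40) and GRK2 (0.37), and 3 downwards, among them RGS8 (-1.12) and RGS2 (-0.79). Of 6 genes for noradrenaline synthesis, transport and breakdown, SLC29A4, a monoamine transporter, fell by 0.76 and no other passed. Without the 2 striatal-marker controls none of these 6 passed, and the counts upwards and downwards were 4 and 1 for the Gq arm, 4 and 2 for the Gs arm and 3 and 2 for the desensitisation list. The share of all genes in that fit is not reported here.

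In F1 males fewer passed (background 5.74% upwards, 3.48% downwards). The Gs arm had 3 of 21 downwards, among them AKAP5 (-0.39), an anchor for protein kinase A, and PRKACB (-0.24), its catalytic subunit. The Gq arm had ITPR2 upwards (0.33) and 2 downwards, among them DGKG (-0.21), of 18. The Gi and Go arm had HCN3 downwards (-0.29) of 11. RGS3 rose (0.60) and GRK3 (-0.41) and RGS7 (-0.23) fell, of 13 in the desensitisation list, and 1 of 7 genes for noradrenaline synthesis, transport and breakdown passed upwards. Without sGC animal 6 the Gq and Gs arms each had 1 upwards and 4 downwards. Calls rose over all genes in that fit too, to 1613 from 1062 in the main fit. In F2 females none of these genes passed by the quasi-likelihood test. In F3 females 2 of 21 genes of the Gs arm, ADCY2 (0.41) and GNAS (0.33, the Gs alpha subunit), passed upwards (background 1.07% upwards). There 1 of 10 genes of the Gi and Go arm also passed upwards. At an unadjusted p under 0.05, 6 of the 10 were higher, beside 17.3% of all genes tested in either direction. Of the excitatory neuron markers in F3 females 4 of 5 were higher at that threshold and none at FDR 0.05. Their sum was 1955 to 2017 CPM in controls and 2443 to 2700 CPM with sGC, and their part in this was not tested.

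**Figure D4:**
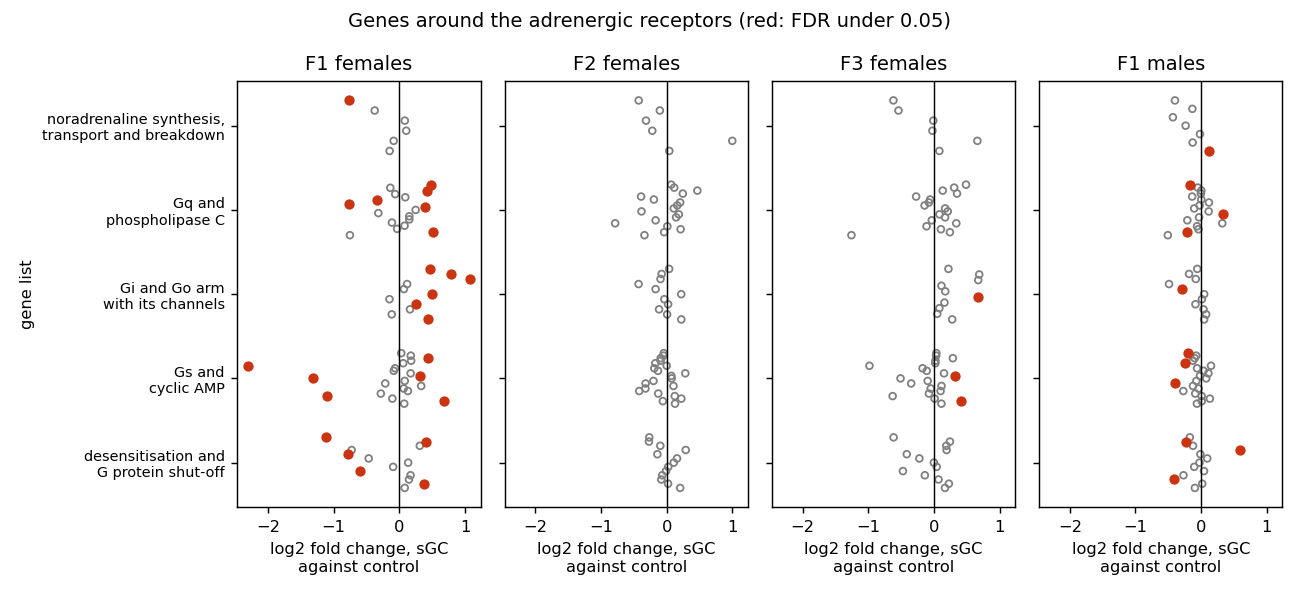
Log2 difference between sGC and control animals (x axes) for each gene tested of 5 lists (rows) in the 4 tables, with genes at FDR under 0.05 filled in red and the others open; vertical position within a row only separates points. In F1 females 6 of 11 genes of the Gi and Go arm are red, all to the right of 0, and none is red in F2 females.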

How the data were processed

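The authors deposited, for each of the 4 tables, whole-number read counts per gene symbol. TopHat2 and edgeR are named in the submitters' processing notes, without a role. The genome build, annotation and read counter are not given in the sources used here. The tables also hold columns of the authors' own comparison (fold changes, mean log CPM, a test statistic and p-values), which were not used.

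The members and gene lists were chosen with earlier results of these data known. For each table edgeR 4.0.16, in R 4.3.3, was fitted to the counts (filterByExpr, minimum count 10 and minimum total 15; TMM; quasi-likelihood test; Benjamini-Hochberg FDR under 0.05 over all genes tested). Alternatives were the likelihood ratio test that the study names, DESeq2 1.42.0, other scalings, no filter, a replicate block and each animal left out. The fits were tested on simulated data. Interactions were tested for 4 pairs of tables. Relations between animals were tested by permutation within groups (numpy 2.4.6, with ranks from scipy 1.17.1). P-values measure the spread between animals. For the female offspring the paper took 1 animal of each sex per litter. Litters of the F1 males and shared sires are not given in the sources used here, so dependence between animals was not tested. Named genes were the listed receptors, other adrenoceptors, the 2 called genes with the largest rise and fall in each gene list and table, and the 3 genes most alike to each receptor. Some genes that this rule names are not reported here. Sequences were not used here.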

Additional observations from a re-analysis of the deposited data

Results flagged for a closer look

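In a screen of 32 groups of 4 to 6 animals for a single animal far from the others, where chance marks about 1 group in 20, 3 values stood out. ADRA1A in F1 male sGC animal 6 was at 64.1 CPM, against 24.7 to 30.1 CPM in the other 5. ADRA1B in F2 female control animal 1 was at 23.2 CPM, against 33.7 to 35.8 CPM in the other 3. ADRB1 in F1 male sGC animal 1 was at 15.2 CPM, against 11.9 to 13.1 CPM in the other 5.

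A difference in response between F1 females and F1 males passed the interaction test for ADRA1A (-0.95, FDR 0.0355). It passed in 7 of 19 fits with 1 animal left out (FDR up to 0.0808), and 31.7% of all genes tested passed the same interaction.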

How the results depend on the processing

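Outside the fits that left out 1 animal, no receptor gene changed direction under any setting. The F1 female calls were 1038 higher and 826 lower by TMM, 803 and 1088 by upper-quartile scaling, and 609 and 1713 with raw library sizes. With the 2 striatal-marker controls omitted (chosen after seeing the data), receptor genes called were 1 in F1 females, 2 for the interaction of F1 females with males and 2 for that of F1 with F2 females, and 369 genes passed for F1 with F3 females. The likelihood ratio test and DESeq2 gave 534 and 473 genes in F2 females (31 in the main test), 616 and 632 in F3 females (153), 114 and 201 for the F1 and F3 interaction (11), 93 and 126 for the F2 and F3 interaction (2), and 2 receptor genes each for F1 females and males (1). Upper-quartile scaling gave 70, raw library sizes 96 and no filter 76 genes in F2 females; upper-quartile scaling gave 18 for F1 and F3, and both it and RLE gave 4 for F2 and F3.

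Correlations between control and sGC animals of the same replicate number ran from -0.33 to 0.34. With so few animals per group they cannot show whether those numbers pair animals. A replicate block gave 1080 genes in F1 females, 53 in F2 females, 67 in F3 females, 0 for the F1 and F3 interaction and 9 for the F2 and F3 interaction. The replicate block called 1 receptor gene in F1 males, ADRA1A (-0.82, FDR 0.00857). There sGC animal 6 has no control of its number and adds nothing to the fit. The count over all genes in that fit is not reported here. Leaving out sGC animal 6 without a block raised the calls over all genes from 1062 to 1613.

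With 1 animal left out, genes called ranged from 613 to 2115 in F1 females, 0 to 487 in F2 females, 20 to 598 in F3 females and 667 to 1613 in F1 males, and for the interactions from 3007 to 3623 (F1 females and males), 808 to 1906 (F1 and F2), 1 to 97 (F1 and F3) and 0 to 44 (F2 and F3). Receptor genes called ranged from 0 to 1 in F1 females, in F1 males and for F1 and F2, and from 0 to 2 for F1 females and males. Directions turned in some of these fits for values near 0, which ranged from -0.051 to 0.17 for ADRA1B in F2 females. For the interactions the ranges were -0.31 to 0.033 (ADRB1, F1 and F2), -0.21 to 0.15 (ADRB1, F1 and F3), -0.82 to 0.067 (ADRA1D, F1 and F3) and -0.094 to 0.23 (ADRB1, F2 and F3). The cause was not tested.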

Other observations

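Among 10725 genes tested in all 4 tables, those whose deviations from the group means went most closely with each receptor over 35 animals were, by Pearson r, DIAPH3 (0.83), ARNT2 (0.80) and AFF2 (0.78) for ADRA1A, MPI (0.82), CACNG5 (0.81) and CTGF (0.81) for ADRA1B, SLC30A3 (0.87), ESRRB (0.85) and CRB2 (0.84) for ADRA1D, and INPP5J (0.83), CACNA1A (0.82) and GPCPD1 (0.82) for ADRB1. These are the highest of many and are a description. By Spearman rho, 0 of the 3 for ADRA1A, 1 for ADRA1B, 3 for ADRA1D and 1 for ADRB1 were again among the 3 highest. Without F1 male sGC animal 6 the r of DIAPH3, ARNT2 and AFF2 with ADRA1A was 0.74, 0.68 and 0.72. For ADRB1, INPP5J and GPCPD1 had r of -0.47 and -0.45 within F3 females. SLC30A3, the zinc transporter of synaptic vesicles, had r of 0.95, 0.81, 0.88 and 0.68 with ADRA1D within F1, F2 and F3 females and F1 males.

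In F1 males, ADRA2B was at 0.08 to 0.71 CPM (2 to 20 reads) and did not pass (FDR 0.741), and ADRB3 was listed with 4 to 29 reads and was filtered out.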
